A study of Homo sapiens with 3 samples.

Results

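The genes described here encode the muscle acetylcholine receptor, the proteins that cluster it at the nerve contact, and the machinery that turns membrane excitation into calcium release. They are the receptor subunits CHRNA1, CHRNB1, CHRND, CHRNG and CHRNE, the receptor-clustering proteins MUSK and RAPSN, and the calcium handling proteins CACNA1S, RYR1 and ATP2A1. Every probe set whose annotation names only one of these genes was taken, which gave 13 probe sets for 10 genes, out of 19064 probe sets that name 1 gene and 11963 genes on the array. The cells were RH30, an established line of human alveolar rhabdomyosarcoma, a childhood tumour with features of skeletal muscle. One culture had received, for 12 hours, 10 µM of an anti-MYCN PNA. A peptide nucleic acid (PNA) is a synthetic molecule that carries the bases of DNA on a backbone like that of a peptide, and this one targets the MYCN gene. Another culture had received a mutated PNA, described as without activity, at 10 µM for 12 hours, and another was untreated. All cultures were grown in RPMI medium with serum, antibiotics and glutamine. Each condition had 1 array, so the 3 arrays give no replicate error and allow no test, and each difference compares single arrays of 1 cell line. One array is untreated by its title and treatment text but carries mutated PNA in its source name. It is taken as untreated, and every direction that involves it alone depends on that choice.

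In skeletal muscle, motor nerves release acetylcholine onto a pentameric ion channel. Fetal and denervated muscle makes it with the gamma subunit (CHRNG), and innervated adult muscle replaces gamma with epsilon (CHRNE), whereas alpha1, beta1 and delta (CHRNA1, CHRNB1, CHRND) belong to both forms. Nerve-derived agrin acts through LRP4 on the receptor kinase MUSK, and the scaffold protein rapsyn (RAPSN) then holds the receptors in clusters. Excitation of the membrane is sensed by the dihydropyridine receptor (CACNA1S), which opens the ryanodine receptor RYR1 of the sarcoplasmic reticulum, and the pump SERCA1 (ATP2A1) returns the calcium. Transcription of many of these genes in developing muscle depends on myogenic factors such as MyoD and myogenin, which bind E-boxes.

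The promoters of the receptor subunits and of CACNA1S are shown because these subunits shared no direction and CACNA1S was the member furthest above both controls. The windows are those of RefSeq on GRCh38.p14, each 300 bases long, from 250 bases before the gene's start to 50 after it. Of the 10 members 8 had an entry, all but CHRNG and RAPSN. Capitals mark E-boxes, CANNTG, and the N-box, CCGGAA or TTCCGG on the other strand, an element known from synaptic genes of muscle.
CHRNA1 promoter, chr2:174764423-174764722, minus strand: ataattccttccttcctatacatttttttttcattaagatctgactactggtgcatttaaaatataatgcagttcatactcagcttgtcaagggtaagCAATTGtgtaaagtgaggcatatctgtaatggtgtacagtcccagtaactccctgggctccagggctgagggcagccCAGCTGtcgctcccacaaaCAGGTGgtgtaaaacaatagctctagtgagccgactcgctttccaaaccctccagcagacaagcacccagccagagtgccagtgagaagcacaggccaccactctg
CHRNB1 promoter, chr17:7444811-7445110, plus strand: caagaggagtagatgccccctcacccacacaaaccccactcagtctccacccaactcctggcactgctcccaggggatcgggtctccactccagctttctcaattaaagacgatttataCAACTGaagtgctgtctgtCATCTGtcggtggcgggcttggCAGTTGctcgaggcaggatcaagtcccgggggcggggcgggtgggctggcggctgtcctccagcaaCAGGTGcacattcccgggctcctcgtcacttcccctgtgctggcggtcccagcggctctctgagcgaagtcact
CHRND promoter, chr2:232525910-232526209, plus strand: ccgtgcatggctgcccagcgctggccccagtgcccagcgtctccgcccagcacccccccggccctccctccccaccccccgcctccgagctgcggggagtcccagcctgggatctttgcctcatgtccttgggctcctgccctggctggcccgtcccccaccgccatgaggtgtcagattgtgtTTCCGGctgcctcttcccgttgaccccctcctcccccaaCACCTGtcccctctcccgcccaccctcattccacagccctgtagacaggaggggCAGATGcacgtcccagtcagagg
CHRNE promoter, chr17:4903049-4903348, minus strand: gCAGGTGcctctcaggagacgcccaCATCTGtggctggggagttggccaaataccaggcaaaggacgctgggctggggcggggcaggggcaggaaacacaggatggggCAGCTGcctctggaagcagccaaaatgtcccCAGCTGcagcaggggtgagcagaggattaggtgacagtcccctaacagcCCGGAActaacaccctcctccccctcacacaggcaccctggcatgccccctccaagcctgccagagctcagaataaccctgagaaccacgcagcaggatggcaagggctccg
CACNA1S promoter, chr1:201112377-201112676, minus strand: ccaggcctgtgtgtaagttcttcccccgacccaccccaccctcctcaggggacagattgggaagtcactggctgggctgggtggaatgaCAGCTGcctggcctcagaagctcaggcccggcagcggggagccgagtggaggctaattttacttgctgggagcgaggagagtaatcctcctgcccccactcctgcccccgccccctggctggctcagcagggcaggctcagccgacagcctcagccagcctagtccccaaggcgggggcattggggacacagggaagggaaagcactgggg

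Positions in these windows count from 1 at the first base. An E-box was present in 7 of the 9 member windows (ATP2A1 has 2 windows), and in 68.7% of the 35116 windows of all genes. The CAGCTG form, which MyoD and myogenin favour, was present in 5 of 9, against 17.9% of all windows. It lies at bases 176 to 181 for CHRNA1, at 109 to 114 and 140 to 145 for CHRNE, and at 90 to 95 for CACNA1S, and MUSK and 1 ATP2A1 window also hold it. The windows of CHRNB1 and CHRND held other E-boxes and not this form. The CACGTG form, which MYC-family factors favour, was in none of the 9 and in 7.26% of all windows. The N-box was in the windows of CHRND, at bases 185 to 190, and CHRNE, at bases 189 to 194, 2 of 9 against 17.2% of all. The RYR1 window held none of these motifs. Both strands were searched, CAGCTG and CACGTG are forms of CANNTG, and a match describes letters only. CHRND and CHRNG lie next to each other on chromosome 2 in the RefSeq gene order, CHRNG overlaps TIGD1, and CHRNE overlaps C17orf107 and MINK1.

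MYCN, the targeted gene, read 2202 on the anti-MYCN PNA array, against 2804 on mutated PNA and 3313 on untreated by its brightest probe set, which is 78.6% of mutated PNA and 66.5% of untreated. Signals are linear MAS5 values. For differences, any signal under 23.4, the 25th percentile of all gene signals, was set to that value (the floor), and log2 was taken. A gene was represented by its brightest probe set, and 6745 genes whose mean signal reached 117, the 50th percentile, passed the signal filter. The MYCN log2 differences were −0.35 to mutated PNA and −0.59 to untreated, and −0.24 between the controls. The controls were within 0.37 of each other for 95% of genes of like signal, so only the difference to untreated lay outside. Another MYCN probe set read 17.4 on anti-MYCN PNA, 29.8 on mutated PNA and 55.3 on untreated. The last read 11.3, 9 and 8.2, all below the floor. The anti-MYCN PNA array stood apart in its control probe sets: all 24 poly-A spike probe sets were lowest on it, at a median of 0.382 of mutated PNA and 0.410 of untreated. Its dim end was raised, with a 25th percentile of 28.3, against 22.5 on mutated PNA and 20.7 on untreated. The part of these array differences in the values below was not tested.

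Receptor, clustering and calcium genes of RH30 cells showed no common direction in anti-MYCN PNA cells. Of the 10 members, CHRNB1, CHRNE, MUSK, RAPSN, RYR1, CACNA1S and ATP2A1 read higher than on both controls by their brightest probe sets, CHRND and CHRNG read lower than on both, and CHRNA1 lay between the controls. The second probe sets of CHRNE and MUSK did not read higher than on both. With quantile normalization MUSK, and with arrays scaled to equal medians MUSK and RAPSN, were no longer higher than both. The gamma subunit gene CHRNG was the one member at least 2-fold below both controls, and CACNA1S the one at least 2-fold above both. Both are dim, and each crossed the floor. The bright calcium genes RYR1 and ATP2A1 were 1.46 and 1.24 times mutated PNA and 1.61 and 1.74 times untreated.

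**Figure D1:**
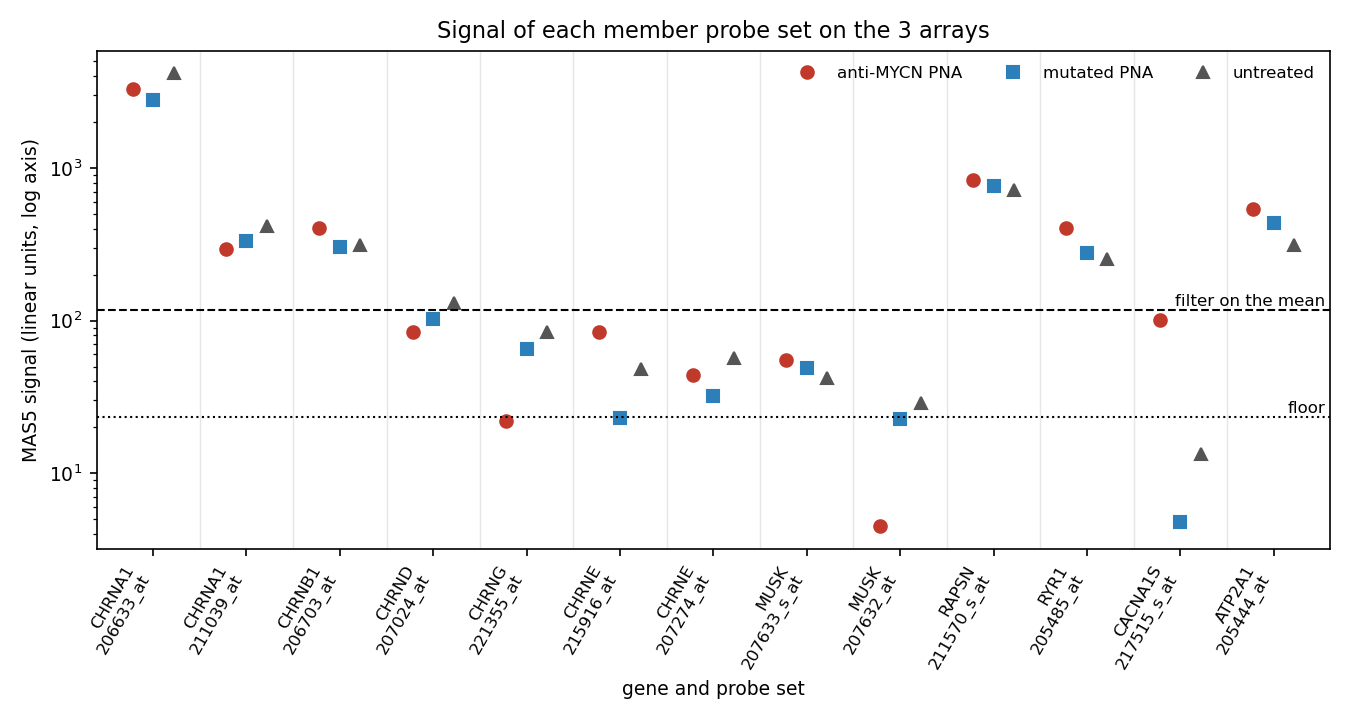
MAS5 signal (log axis) of each of the 13 member probe sets on the anti-MYCN PNA, mutated PNA and untreated arrays, 1 point per array. The dotted line is the floor of 23.4 and the dashed line the signal filter of 117, which the mean of 6 probe sets passes; CHRNA1 has the highest signals, and CHRNG, CACNA1S, 1 CHRNE probe set and 1 MUSK probe set have values below the floor.

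Of the 13 probe sets, 6 passed the signal filter. They measure CHRNA1, with 2 probe sets, CHRNB1, RAPSN, RYR1 and ATP2A1. CHRND, CHRNG, CHRNE, MUSK and CACNA1S had mean signals of 105, 57.2, 51.8, 48.8 and 39.6, below the filter, and their differences are correspondingly uncertain. For 95% of the 2965 genes with a mean between the floor and the filter, the log2 difference between the controls was 1.40 or less, and that between anti-MYCN PNA and mutated PNA 1.86 or less. Probe sets differ in affinity, so the brightness of one gene is not set against that of another.

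CHRNA1, the ligand-binding alpha1 subunit shared by both receptor forms, gave by its brighter probe set a signal of 3286 in anti-MYCN PNA cells, 2795 in mutated PNA cells and 4176 in untreated cells. The untreated array was thus the highest, and mutated PNA the lowest. Its log2 differences were 0.23 for anti-MYCN PNA minus mutated PNA, −0.35 for anti-MYCN PNA minus untreated and −0.58 for mutated PNA minus untreated. The last is outside the range of the controls for 95% of the 674 genes of like signal, 0.28, and CHRNA1 was 1 of 2 genes of that class as far below untreated in mutated PNA cells. For anti-MYCN PNA minus untreated, 80 genes of the class were as far below, CHRNA1 included. The dimmer CHRNA1 probe set gave 293 in anti-MYCN PNA cells, 332 in mutated PNA cells and 418.5 in untreated cells. It was lower than untreated on both PNA arrays too, by −0.51 in anti-MYCN PNA and −0.33 in mutated PNA cells, within the 0.56 by which the controls differed for 95% of its class. The probe sets disagreed on anti-MYCN PNA against mutated PNA, where the dimmer gave −0.18.

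CHRNB1, the beta1 subunit, read 406 in anti-MYCN PNA cells, 303 in mutated PNA cells and 313 in untreated cells. The anti-MYCN PNA value was the highest, by 0.42 over mutated PNA and 0.38 over untreated on the log2 scale. The controls were close to each other, at −0.05. Both differences lie within the 0.56 range of the controls for its class.

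CHRND, the delta subunit, read 83.7 in anti-MYCN PNA cells, 102 in mutated PNA cells and 129.6 in untreated cells. The anti-MYCN PNA array was the lowest and untreated the highest, with log2 differences of −0.29 to mutated PNA and −0.63 to untreated. The controls differed by −0.35, so the step between them was as large as that from mutated PNA to anti-MYCN PNA. CHRND had 1 probe set, as did its neighbour CHRNG.

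CHRNG, the fetal gamma subunit, read 22.0 in anti-MYCN PNA cells, 64.9 in mutated PNA cells and 84.6 in untreated cells. The anti-MYCN PNA signal was below the floor and both control signals were above it. With that value set at the floor, the differences were −1.47 to mutated PNA and −1.85 to untreated, or at least 2.77-fold and 3.62-fold lower. With a pseudocount in place of the floor the first was −0.96, under 2-fold. The controls differed by −0.38. Of the 2965 genes with a mean between floor and filter, 89 were as far below mutated PNA and 31 as far below untreated, CHRNG included. A drop of this kind, with both other arrays at 64.9 or more and under the filter and the array in question below the floor, was met by 43 of 875 probe sets on the anti-MYCN PNA array, 11 of 618 on mutated PNA and 23 of 636 on untreated. The shares are 4.91%, 1.78% and 3.62%, so the pattern was not confined to 1 array.

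CHRNE, the adult epsilon subunit, was measured by 2 dim probe sets. The brighter read 84.3 in anti-MYCN PNA cells, 23.0 in mutated PNA cells and 48.2 in untreated cells. The other read 44.2, 32.2 and 57.0 in the same order. Both were lowest on mutated PNA, and they placed anti-MYCN PNA on opposite sides of untreated. Against mutated PNA the differences of anti-MYCN PNA were 1.85 and 0.46, and against untreated 0.81 and −0.37. Between the controls they were −1.04 and −0.82.

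The comparison of CHRNG with CHRNE addresses the fetal and adult receptor forms. Only their differences between arrays can be set against each other, not their levels. In anti-MYCN PNA relative to mutated PNA cells, the difference of CHRNG was −3.32 relative to the brighter CHRNE probe set and −1.93 relative to the other, both on the log2 scale, and −2.17 with a pseudocount for the brighter. Relative to untreated cells the values were −2.66 and −1.49. Between mutated PNA and untreated cells they had the opposite sign, 0.66 and 0.44. CHRNG was thus lower relative to CHRNE in anti-MYCN PNA cells than in mutated PNA and in untreated cells, by either CHRNE probe set. Both use the same CHRNG differences, −1.47 and −1.85, so the CHRNE probe sets do not give separate support. To untreated, the dimmer CHRNE probe set was itself lower, by −0.37. All 3 probe sets were below the signal filter, and CHRNG on anti-MYCN PNA and the brighter CHRNE probe set on mutated PNA were at the floor. A change of receptor form cannot be read from single arrays at these signals.

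**Figure D2:**
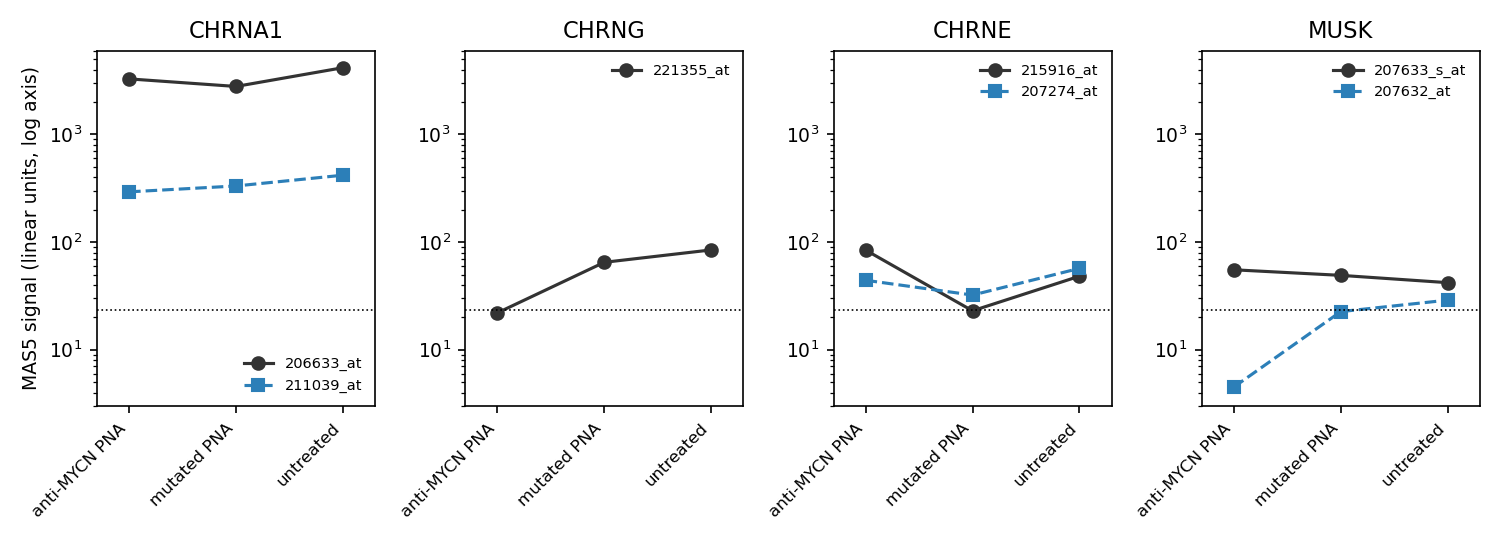
MAS5 signal (log axis) of CHRNA1, CHRNG, CHRNE and MUSK on the anti-MYCN PNA, mutated PNA and untreated arrays, with 1 line per probe set joining its 3 values and the floor dotted. The CHRNA1 probe sets are both highest on untreated, the CHRNE probe sets are both lowest on mutated PNA, and the MUSK probe sets run in opposite directions, with 55.3 and 4.5 on anti-MYCN PNA.

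MUSK, the receptor tyrosine kinase that starts receptor clustering, gave opposite orders by its 2 probe sets. The one with the suffix _s_at, which marks probes shared between transcripts, read 55.3 in anti-MYCN PNA cells, 49.1 in mutated PNA cells and 42.0 in untreated cells. The other read 4.5, 22.6 and 28.9. The first had its highest value in anti-MYCN PNA cells and the second its lowest. On the second only the untreated value was above the floor, so its differences to mutated PNA have no order. MUSK enters the counts over members by the first probe set alone, and its place there is not shared by the second.

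RAPSN, the scaffold that anchors the receptors, read 830 in anti-MYCN PNA cells, 758 in mutated PNA cells and 715 in untreated cells. Its log2 differences for anti-MYCN PNA were 0.13 to mutated PNA and 0.22 to untreated, and 0.08 separated the controls. The controls were within 0.46 of each other for 95% of its 674 genes of like signal, and all 3 values lie inside that range. With arrays scaled to equal medians the first of them was −0.05. Of the members past the filter it spanned the narrowest range over the 3 arrays.

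CACNA1S, the voltage sensor of the transverse tubule, read 100.6 in anti-MYCN PNA cells, 4.8 in mutated PNA cells and 13.3 in untreated cells. Both control signals were below the floor. With these set to the floor, anti-MYCN PNA was higher by 2.10 than each, or at least 4.30-fold. With no floor the log2 differences were 4.39 to mutated PNA and 2.92 to untreated, and with a pseudocount 2.14 and 1.76. The 2 equal values are the same floor, not 2 measurements. Of 3644 probe sets below the floor on both controls, 24 reached 100.6 on the anti-MYCN PNA array. On mutated PNA 1 of 3118 did when the other arrays were below the floor, and on untreated 3 of 3084. The shares are 0.659%, 0.0321% and 0.0973%. The share was highest on the anti-MYCN PNA array, which also had the raised dim end and the low poly-A spikes. Its probe set, the only one of the gene, carries the suffix _s_at too.

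RYR1, the calcium release channel, read 407 in anti-MYCN PNA cells, 279 in mutated PNA cells and 253 in untreated cells. Anti-MYCN PNA was the highest array, by 0.55 over mutated PNA and 0.69 over untreated on the log2 scale. The controls were 0.14 apart. The controls were within 0.644 of each other for 95% of 675 genes of like signal. The difference to untreated lay outside that range and the one to mutated PNA inside it. With quantile normalization the difference to untreated was 0.641 and with median scaling 0.488, neither above 0.644. The anti-MYCN PNA array itself differed from untreated by up to 1.13 for 95% of that class, and 99 of its genes were as far above untreated as RYR1, RYR1 included.

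ATP2A1, the fast-twitch calcium pump, read 541 in anti-MYCN PNA cells, 438 in mutated PNA cells and 311.5 in untreated cells. Both PNA arrays were above untreated, by 0.80 for anti-MYCN PNA and 0.49 for mutated PNA on the log2 scale, and anti-MYCN PNA was above mutated PNA by 0.30. Of the 674 genes of like signal, 59 were as far above untreated in anti-MYCN PNA cells and 25 in mutated PNA cells, ATP2A1 included. The class range of the controls was 0.56, which the first difference passes and the second does not. RAPSN, RYR1 and ATP2A1 shared the order anti-MYCN PNA, mutated PNA, untreated from high to low. With median scaling RAPSN lost this order, at −0.05 to mutated PNA. The share of all genes with this order was not counted.

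Each member makes up 10% of the 10, so that shares of members move in large steps. The comparison of anti-MYCN PNA with both controls at 2-fold called CACNA1S higher, 1 of 10 members against 5.20% of all 11963 genes, and CHRNG lower, 1 of 10 against 1.52%. Among genes past the filter the shares were 1.16% higher and 1.26% lower, and none of the 5 members there was called. Against mutated PNA alone, CHRNE and CACNA1S were at least 2-fold higher, 2 of 10 against 7.96% of all genes, and CHRNG was lower, 1 of 10 against 3.66%. Against untreated alone, CACNA1S was higher, where 8.83% of all genes were, and CHRNG lower, where 3.10% were. With 1 or 2 members behind each count, nothing about the group is read from these shares. These comparisons share the anti-MYCN PNA array.

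By any size, 7 of 10 members were above both controls, where 44.2% of all genes were, and 2 of 10 were below both, where 27.3% were. With quantile normalization the members above both were 6 and with median scaling 5, where 38.0% and 32.5% of all genes were, and those below both 3 and 2, where 31.0% and 37.3% were. Median scaling moved the median of all genes past the filter by −0.18 against mutated PNA and −0.20 against untreated. The 5 members past the filter had 4 above both, CHRNB1, RAPSN, RYR1 and ATP2A1, where 47.9% of genes past the filter were. With 10 members these counts are a description and not a result about the group. The median log2 difference over the 10 members was 0.27 for anti-MYCN PNA minus mutated PNA, against 0.06 over genes past the filter and 0.01 over all genes. For anti-MYCN PNA minus untreated it was 0.39, against 0.06 and 0.01. These backgrounds differ from the members in signal. Over the 2965 genes with a mean between floor and filter, the median of anti-MYCN PNA minus the mean of both controls was 0.39. The members below the filter lie in that class, so the member medians are not read as raised. Over the 5 members past the filter the medians were 0.30 and 0.38. The members ranged from −1.47 to 2.10 and from −1.85 to 2.10 in these comparisons.

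**Figure D3:**
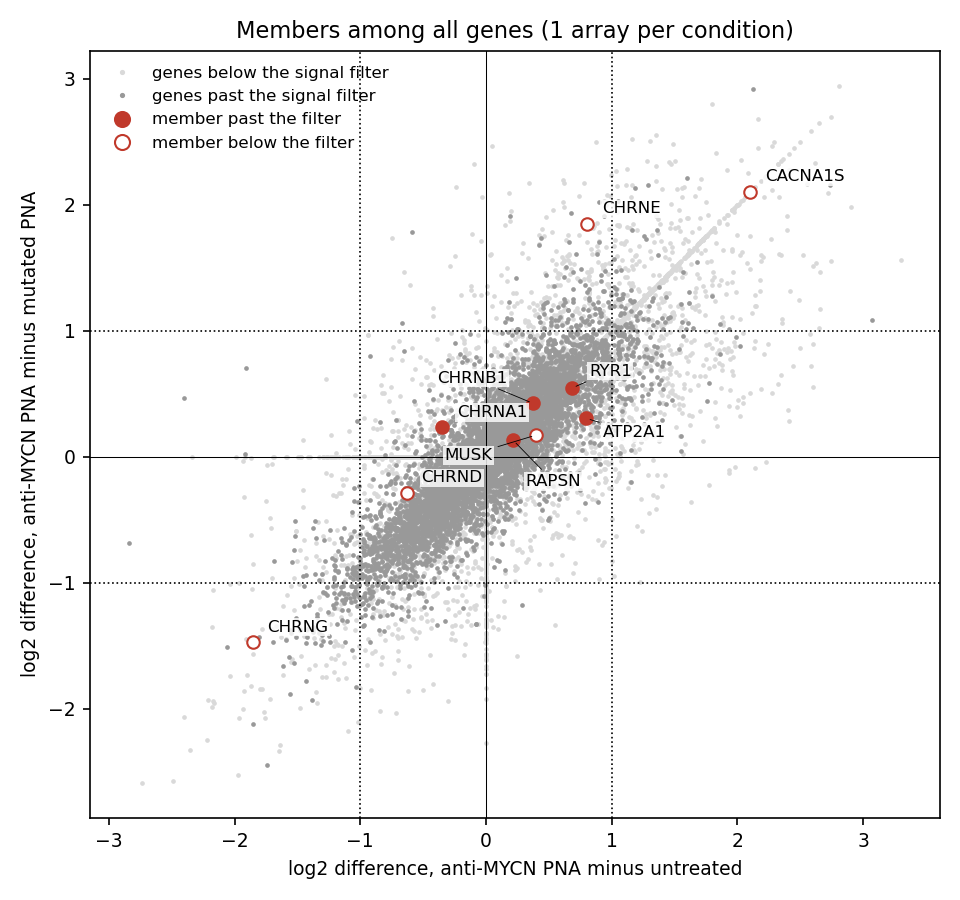
Log2 difference of anti-MYCN PNA to untreated (horizontal) and to mutated PNA (vertical) for all 11963 genes as small points and the 10 members as labelled circles, filled where the mean signal passes the filter; the axes share the anti-MYCN PNA array, and dotted lines mark 2-fold. CACNA1S and CHRNG lie beyond 2-fold on both axes, CHRNE beyond it against mutated PNA only, and the other 7 members within 2-fold on both; the diagonal streak holds genes at the floor on both controls.

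Between mutated PNA and untreated cells, the comparison of the controls with each other, CHRNE was the one member at least 2-fold apart. It was lower, 1 of 10 where 1.84% of all genes were, with the mutated PNA value at the floor. No member was 2-fold higher, where 2.73% of all genes were. The median over the 9 members above the floor on either array was −0.05, against 0.00068 over the 6745 genes past the filter. CHRNA1, CHRND and CHRNG were below untreated on both PNA arrays, 3 of 10 where 21.5% of all genes were, and MUSK, RAPSN, RYR1 and ATP2A1 above it on both, 4 of 10 where 26.5% were. Both directions rest on the label of the untreated array.

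CHRNA1, taken because its signal was furthest above the floor and not as a level to set against other genes, was compared with all genes past the filter. The 3 genes of like pattern over the 3 arrays were JRKL, SPRY2 and ZNF362. Likeness was the Euclidean distance between log2 signals centred on each gene's mean over 3 arrays, and the distances were 0.025, 0.030 and 0.032. SPRY2, an inhibitor of receptor tyrosine kinase signalling, read 1866 in anti-MYCN PNA cells, 1634 in mutated PNA cells and 2411 in untreated cells. With 3 arrays many genes come close: 26 of 6744 lay within a distance of 0.1.

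Other genes of the neuromuscular synapse and of calcium release were followed as lists. The synapse list held 27 measured genes, of which 20 passed the filter. Of these, 1 was at least 2-fold above both controls and none below, where 1.16% and 1.26% of genes past the filter were. That gene was AGRN, which encodes the clustering signal agrin, with 677 in anti-MYCN PNA cells, 298 in mutated PNA cells and 314 in untreated cells. The basement membrane laminins LAMA5 and LAMB2, both components of the synaptic cleft, read 220 and 207 in anti-MYCN PNA cells, 115 and 118 in mutated PNA cells, and 116 and 95.9 in untreated cells. GABPA, the DNA-binding subunit of GABP, a factor known to bind the N-box, read 147 in anti-MYCN PNA cells, 228 in mutated PNA cells and 309 in untreated cells. Between the controls, 95% of genes differed by up to 0.94 in the class of LAMA5 and LAMB2 and 0.72 in that of GABPA. Within these ranges lay both LAMA5 differences, 0.93 and 0.92, and those of LAMB2 and GABPA to mutated PNA, 0.81 and −0.64. To untreated, LAMB2 was at 1.11 and GABPA at −1.07, outside these ranges. Anti-MYCN PNA itself differed from untreated by up to 1.30 and 1.18 for 95% of those classes. In all, 10 of the 20 were above both controls, where 47.9% of genes past the filter were, and 6 below, where 37.6% were. The list median was 0.19 to mutated PNA and 0.10 to untreated, against 0.06 for genes past the filter in both comparisons. With median scaling 8 were above both and 9 below, where 32.0% and 53.3% of genes past the filter were. The list medians were then 0.01 and −0.10, against −0.12 and −0.14 for genes past the filter, and AGRN was 0.91 above untreated, under 2-fold. The values of AGRN, LAMA5 and LAMB2 are those of their brightest probe sets, which carry the suffix _s_at. With the median in place of the brightest probe set, no synapse gene past the filter was at least 2-fold above both controls. The AGRN call thus depended on taking its brightest probe set.

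Of 23 measured excitation-contraction coupling genes, 9 passed the filter. Of these 9, 1 was at least 2-fold below both controls, where 1.26% of genes past the filter were, and none above, where 1.16% were. That gene, TMEM38B, read 181 in anti-MYCN PNA cells, 505 in mutated PNA cells and 489 in untreated cells. It encodes a potassium channel of the endoplasmic and sarcoplasmic reticulum that balances calcium release and is not particular to muscle. Its probe set has the suffix _x_at, given where some probes can hybridise to unrelated transcripts. BIN1, which shapes the transverse tubules, read 1632.5, 933 and 1102.5 in the same order of arrays, and FKBP1A, a subunit bound to RYR1, 3566, 2729 and 2858. STIM1, the calcium sensor of the reticulum, read 138.5, 104.9 and 122.5. The STIM1 differences, 0.40 and 0.18, lay within the 0.94 by which the controls differed for 95% of its class. FKBP1A was 0.39 above mutated PNA and 0.32 above untreated, with a class range of 0.37. Both differences of TMEM38B and of BIN1 lay outside their ranges, 0.56 and 0.42. For 95% of the class of BIN1, anti-MYCN PNA itself differed from mutated PNA by up to 0.89 and from untreated by up to 0.88. The BIN1 differences, 0.81 and 0.57, lay inside those, and with median scaling the one to untreated was 0.37. The list median was 0.06 to mutated PNA and 0.05 to untreated, and −0.12 and −0.15 with median scaling, under which STIM1 was at −0.02 to untreated (−0.0011 with quantile normalization). JPH2, TRDN, CASQ2 and PLN, which hold the junction together or regulate calcium in the reticulum, were below the floor on all 3 arrays.

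Close relatives of the members were mostly dim. Of 25 measured paralogues 4 passed the filter, CHRNA5, RYR3, ATP2A2 and ITPR1. None was 2-fold above or below both controls, where 1.16% and 1.26% of genes past the filter were. ATP2A2, the pump SERCA2 of slow and cardiac muscle and of other tissues, read 3486 in anti-MYCN PNA cells, 3035 in mutated PNA cells and 3289 in untreated cells, and its difference to untreated was −0.12 with median scaling. RYR3, another ryanodine receptor, lay on the other side of the controls from RYR1, with 520 in anti-MYCN PNA cells, 740 in mutated PNA cells and 614 in untreated cells. ITPR1, a calcium release channel opened by inositol trisphosphate, read 112, 113 and 127.5 in the same order. The log2 differences of RYR3 to the controls were −0.51 and −0.24, where those of RYR1 were 0.55 and 0.69. The controls were within 0.46 of each other for 95% of the class of RYR3, so its difference to untreated lay inside that range. The differences of ATP2A2 and ITPR1 lay inside theirs, 0.28 and 0.94.

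Of 26 measured myogenic regulators 19 passed the filter. None was 2-fold above or below both controls, where 1.16% and 1.26% of genes past the filter were. By any size 5 were above both and 7 below, where 47.9% and 37.6% of genes past the filter were. TCF12 and TCF4, E-proteins that pair with MyoD and myogenin on E-boxes, read 1186 and 709 in anti-MYCN PNA cells, 1778 and 1184 in mutated PNA cells, and 2114 and 1086 in untreated cells. TCF3, another E-protein of the list, lay above both controls, by 0.22 over mutated PNA and 0.14 over untreated on the log2 scale. It read 1809.5 in anti-MYCN PNA cells, 1558 in mutated PNA cells and 1637.5 in untreated cells. Both TCF3 differences lay within 0.42, the control range of its class. Median scaling moved differences by −0.18 to mutated PNA and −0.20 to untreated, so TCF3 was then not above both controls. TCF12 and TCF4 stayed below both controls with quantile normalization and with median scaling. The repressors ZEB1 and SNAI1, which also bind E-boxes, lay on opposite sides: ZEB1 read 1345 in anti-MYCN PNA cells, 1965 in mutated PNA cells and 1907 in untreated cells, and SNAI1 read 526, 380.5 and 279. The SNAI1 difference to mutated PNA, 0.47, lay within the control range of its class, 0.56, and that to untreated, 0.91, outside it. TCF12, TCF4 and ZEB1 lay outside their control ranges, 0.42, 0.42 and 0.37. Anti-MYCN PNA itself differed from mutated PNA by up to 0.89, 0.86 and 0.82 for 95% of these 3 classes, and their differences to mutated PNA lay inside those. The list median was −0.07 to mutated PNA and −0.14 to untreated, against 0.06 for genes past the filter in both comparisons. With median scaling 3 were above both and 12 below, where 32.0% and 53.3% of genes past the filter were, and the list medians were −0.25 and −0.34, against −0.12 and −0.14.

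**Figure D4:**
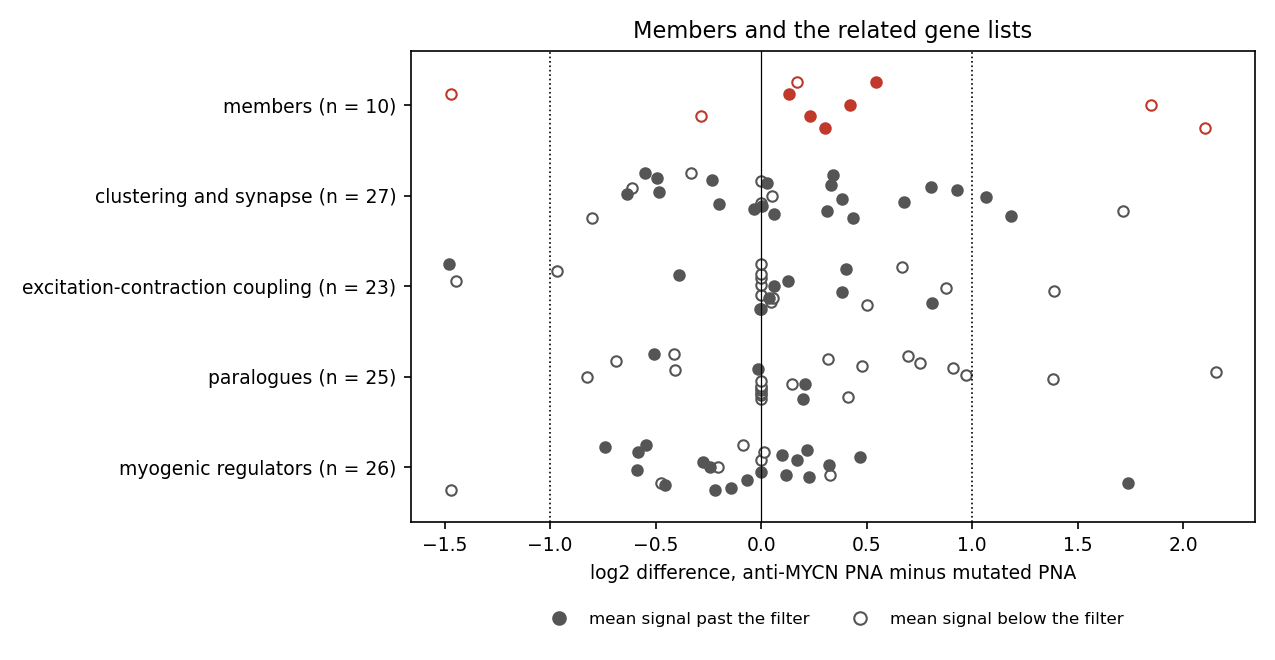
Log2 difference of anti-MYCN PNA to mutated PNA for the 10 members and for every measured gene of the synapse, excitation-contraction coupling, paralogue and myogenic regulator lists, 1 point per gene, filled where the mean signal passes the filter and spread vertically for sight only. The members past the filter lie between 0.13 and 0.55, and the values beyond 2-fold (dotted lines) among the members belong to CHRNG, CHRNE and CACNA1S, all below the filter.

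The defining markers of the labelled cell type were mostly present: MYOD1, MYOG, DES, PAX3, CDH15, NCAM1 and MYCN passed the filter, 7 of 8, and MYF5 did not. MYOD1 read 7834, 6266 and 6715 and MYOG 1024, 1238 and 748 on the anti-MYCN PNA, mutated PNA and untreated arrays. Markers of differentiated muscle had summed signals of 50264, 40324 and 33893 in that order, in the same order as RYR1 and ATP2A1. ACTC1 alone read 27505, 19864 and 17091, and the sums without it were 22759, 20460 and 16802. Of the 14 markers, 8 read higher in anti-MYCN PNA than in mutated PNA cells. TNNI1, MYH2 and ACTA1 read lower, by −0.06, −0.30 and −0.87 on the log2 scale. Against untreated cells, 11 read higher in anti-MYCN PNA cells and none lower. In mutated PNA cells 9 read higher than in untreated cells and 1 lower. Those 9 were above untreated on both PNA arrays, where 26.5% of all 11963 genes were. For the single comparisons by any size the share over all genes was not counted, and nothing about the markers as a group is read from these counts. MYH1, MYH3 and MYBPH were below the floor on all 3 arrays. The part of the muscle markers in the RYR1 and ATP2A1 differences was not tested, and fewer cells of a type and less RNA per cell cannot be told apart in such samples. Of the neuronal markers 1 of 9 passed the filter, of the Schwann cell markers 2 of 4, of the fibroblast markers 2 of 8, of the epithelial markers 1 of 6, and none of 4 leukocyte and 5 endothelial markers.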

How the data were processed

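RNA of RH30 cells was biotin-labelled by the one-cycle protocol and hybridised to Affymetrix arrays, per the labels' protocols. The authors deposited linear MAS5 intensities for each probe set, and the submitters' processing notes name MAS5 and GCOS. The trimmed mean of each array, without 2% at either end, was 500.2. Scanner files and detection calls were not used here, and the number of arrays limits the precision. Probe sets that name 1 gene in GEO's platform annotation were used (19064 of 22215), and symbols were updated through Entrez identifiers from RefSeq (GRCh38.p14) for 19058.

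Arrays were scaled to a common trimmed mean, floored and put on the log2 scale, and nothing was fitted. Genes of like signal are 10 classes of genes past the filter, or the genes between floor and filter. Named beside the members are up to 4 genes of each list past the filter with the largest smaller-of-2 difference to both controls, the defining markers and the 3 nearest patterns. Genes below the floor on all arrays, TCF3 and the other paralogues past the filter were named after their values were seen. The members and lists were chosen with earlier results of these data known. Alternatives were quantile and median scaling, signals as deposited, no floor, a pseudocount, other probe set rules, other thresholds (1.5-fold, 3-fold) and other filters (none, 75th percentile). Scripts ran in Python 3.11.15 with numpy 2.4.6, pandas 2.3.3 and, for plots, matplotlib 3.10.9.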

Additional observations from a re-analysis of the deposited data

How the results depend on the processing

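No paired analysis was possible because there was 1 array per condition, and for the same reason no array could be left out. The members were counted without a filter, so the filter alternatives do not bear on them, and past the filter 0 of 5 were called in either direction. Among the 10 members, the count at least 2-fold above both controls stayed at 1 except without _x_at and _s_at probe sets, where it was 0 because the CACNA1S probe set is one of these, and at 1.5-fold, where it was 2. The count below both stayed at 1 except with a pseudocount and at 3-fold, where it was 0. Over the 52 related genes past the filter, the count above both was 1. It became 0 with median scaling, the median over probe sets, no _x_at and _s_at probe sets, 3-fold and the 75th percentile filter. At 1.5-fold it was 3, and with no filter 5 of 101. Over all genes the count above both was 78 of 6745, 558 of 6745 at 1.5-fold and 622 of 11963 with no filter. For the 52 related genes the count below both was 1 and became 0 without _x_at and _s_at probe sets, at 3-fold and with the 75th percentile filter. At 1.5-fold it was 3, and with no filter 2 of 101. Over all genes the count below both was 85 of 6745, 497 of 6745 at 1.5-fold and 182 of 11963 with no filter. The median of the members for anti-MYCN PNA minus untreated was 0.036 without _x_at and _s_at probe sets, against 0.39, with 8 members left. The change of CHRNG relative to CHRNE against mutated PNA was −2.17 with a pseudocount and −2.62 with the median over probe sets, against −3.32. MUSK and RAPSN changed sign against mutated PNA with median scaling, MUSK against both controls with quantile normalization, and MUSK against untreated without _x_at and _s_at probe sets. Between the controls MUSK changed sign under both other probe set rules. The other members kept their sign in all 3 comparisons under up to 7 alternatives, except where CACNA1S had none between the controls. No alternative took the dimmer probe set of CHRNA1 or CHRNE alone, so these do not bear on it. By the dimmer probe set the sign was the opposite for CHRNA1 against mutated PNA, −0.18, and for CHRNE against untreated, −0.37.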
